A study of Mus musculus with 6 samples.

Results

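The inhibitors of cyclin-dependent kinases and the D-type cyclins were followed on 6 mouse expression arrays of MIN6 cells, 3 after a control siRNA and 3 after an siRNA that targets TDP-43. Tardbp is the gene for TDP-43, which binds RNA and acts in splicing. The family has 10 genes: the Cip/Kip inhibitors Cdkn1a, Cdkn1b and Cdkn1c, the INK4 inhibitors Cdkn2a, Cdkn2b, Cdkn2c and Cdkn2d, and the cyclins Ccnd1, Ccnd2 and Ccnd3. Its members were chosen by gene symbol, as every probe set that the platform annotation gives to 1 of these genes and no other. No signal enters that choice, but the family was proposed with results of this same comparison known, so its differences between the groups are given as a description. The 10 genes had 22 of the 34945 probe sets that name a single gene, out of 18193 such genes. Of these 22 probe sets, 18 lay above the filter on low values, and each of the 10 genes had at least 1 of them.

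MIN6 is a line of insulin-producing cells from a mouse beta cell tumour. As background, the tumour arose in mice that carry the SV40 large T antigen under an insulin promoter, and large T binds the retinoblastoma protein and p53, which limits the line as a model of cell cycle entry. All cells were electroporated, with 100 pmol of siRNA and a pulse of 1200 V for 20 ms. The labels number the samples 1 to 3 in each group and do not say that they came from separate cultures or days, so the spread between them may be technical.

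D-type cyclins bind CDK4 and CDK6, and the active kinases phosphorylate the retinoblastoma protein, which releases E2F transcription factors and lets a cell enter S phase. INK4 proteins bind CDK4 and CDK6 and keep the cyclin away, whereas Cip/Kip proteins bind whole cyclin and kinase complexes and chiefly restrain CDK2. In beta cells the family is known for setting the pace of replication: Ccnd2 is needed for beta cell growth after birth, Cdkn1b restrains it, and Cdkn2a builds up in islets with age.

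The start regions of the inhibitors whose groups did not overlap on any of their probe sets, Cdkn2d and Cdkn1b, are shown beside that of Cdkn2c, an INK4 gene whose signal hardly differed. They come from RefSeq on the build GRCm38.p6, each covers the 250 bases before an annotated transcript start, 5′ to 3′ on the gene's strand, and the capitals mark GC boxes (GGGCGG) and CCAAT boxes (CCAAT), found on either strand. The Cdkn2d region is chr9:21291210-21291459 on the minus strand, the Cdkn1b region chr6:134920151-134920400 on the plus strand, and the Cdkn2c region, at the upstream one of its 2 listed starts, chr4:109666757-109667006 on the minus strand.
Cdkn2d: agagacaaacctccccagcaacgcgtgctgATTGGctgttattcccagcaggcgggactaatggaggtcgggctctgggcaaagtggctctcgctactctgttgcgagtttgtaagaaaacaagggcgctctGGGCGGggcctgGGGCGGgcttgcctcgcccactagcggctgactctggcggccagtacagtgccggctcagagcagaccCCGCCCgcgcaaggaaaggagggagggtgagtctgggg
Cdkn1b: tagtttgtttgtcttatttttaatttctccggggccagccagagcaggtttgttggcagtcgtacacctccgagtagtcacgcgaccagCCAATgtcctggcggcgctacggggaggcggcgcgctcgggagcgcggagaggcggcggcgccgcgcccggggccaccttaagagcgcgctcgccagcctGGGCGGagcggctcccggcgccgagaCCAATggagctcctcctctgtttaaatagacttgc
Cdkn2c: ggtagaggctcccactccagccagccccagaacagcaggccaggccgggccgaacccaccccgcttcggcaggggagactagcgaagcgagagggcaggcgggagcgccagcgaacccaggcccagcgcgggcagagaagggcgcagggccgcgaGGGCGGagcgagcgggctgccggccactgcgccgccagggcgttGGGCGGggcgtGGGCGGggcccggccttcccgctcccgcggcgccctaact

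The Cdkn2d region held 3 GC boxes and 1 CCAAT box, the Cdkn1b region 1 GC box and 2 CCAAT boxes, and the Cdkn2c region 3 GC boxes and 0 CCAAT boxes. Of all 32851 RefSeq start regions of the same length, 32.7% held a GC box and 33.8% a CCAAT box. The E2F sequences TTTCGCGC, TTTGGCGC and TTTCCCGC, which occurred in 0.3%, 0.4% and 0.9% of all regions, were in none of these 3 windows on either strand. The same held for TATAAA (12.4% of all regions), TGACGTCA (1.5%) and CACGTG (6.0%). No motif overlapped another in these windows. Among the other members' windows, 1 of 2 at Cdkn2a held TTTCCCGC and the one at Cdkn2b held TGACGTCA. A match is a description of the letters, and no match says only that they are not in that window. The table of start regions matched 7 of the 10 genes.

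The knockdown was read first. On its brightest probe set, 1423723_s_at, Tardbp fell from control signals of 3748, 3940 and 3699 to 2257, 2249 and 1836 (log2 difference -0.85, SE 0.08, limma adjusted p = 0.00175). The mean was 55.7% of control. Its dimmer probe sets lay at -0.86 (1455655_a_at), -1.41 (1434419_s_at), -1.27 (1428467_at) and -1.24 (1436318_at) in the fit over probe sets. The lowest mean, on 1434419_s_at, was 37.0% of control. Against the brightest, the change differed by -0.56 (SE 0.12) on 1434419_s_at, -0.43 (SE 0.14) on 1428467_at and -0.39 (SE 0.14) on 1436318_at. It differed by -0.02 (SE 0.09) on 1455655_a_at. None of these passed the threshold (smallest limma adjusted p = 0.336), but 0% of all 10812 such pairs of probe sets did, so agreement is not read from it. Every array had the same trimmed mean signal of 500.003. Precision is limited by having 3 arrays in each group. Control replicate 3 stood apart from the other controls: on Ldha, a glycolytic enzyme, it read 4780 against 1829 and 1884, and the TDP-43 siRNA arrays read 4353 to 4547. Across all genes, 94 of 12614 passed the threshold with all 6 arrays and 251 without control replicate 3. Values without that array are given where they differ in the call. Beta cell markers were present: 9 of 12 had a single-gene probe set and all 9 lay above the filter, with a summed signal of 88702 to 91806 in controls and 88572 to 95043 after TDP-43 siRNA. Of the other cell types, 4 of 5 alpha cell markers lay above the filter (sum 31927 to 34196 against 29285 to 32202, mostly Gcg and Ttr), 0 of 3 of delta and PP cells, 3 of 8 of acinar and duct cells (5569 to 6343 against 5022 to 6114, mostly Krt7), 2 of 6 of fibroblasts (137 to 150 against 96 to 145), 1 of 3 of endothelium (45 to 86 against 68 to 89) and 2 of 4 of immune cells (95 to 136 against 104 to 132). Of these lists, 4 of the 5 alpha cell and 6 of the 8 acinar and duct cell markers had a single-gene probe set, as did all markers of the remaining types. None of the beta cell or other markers passed in the limma fit, and 3 had an unadjusted p below 0.05, beside 12.6% of all genes. The 3 were the beta cell zinc transporter Slc30a8 at 0.25, Car2 at -0.76 and Col1a2 at -0.63.

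Of the 10 genes, 1 changed after TDP-43 siRNA: Cdkn2d fell, and the other 9 did not pass. The share that passed among all genes was 0.745%, and from a family proposed with these results known nothing is read from the count. A difference is the TDP-43 siRNA mean less the control mean of log2(signal + 12), fitted in limma over all genes. The Benjamini-Hochberg adjusted p had to lie below 0.05. At an unadjusted p below 0.05 there were 4 of the 10, Cdkn2d, Cdkn1b, Ccnd1 and Ccnd3, beside 12.6% of all genes. For 3 genes, Cdkn2d, Cdkn1b and Ccnd1, the 3 TDP-43 siRNA arrays lay wholly on one side of the 3 control arrays, as they did for 18.3% of all genes. The median difference of the 10 genes was -0.01 and 6 lay below 0, beside a median of 0.02 over all genes, of which 45.1% lay below 0. In RNA of a whole culture, fewer cells of a kind or in a cycle phase and less RNA per cell cannot be told apart.

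**Figure D1:**
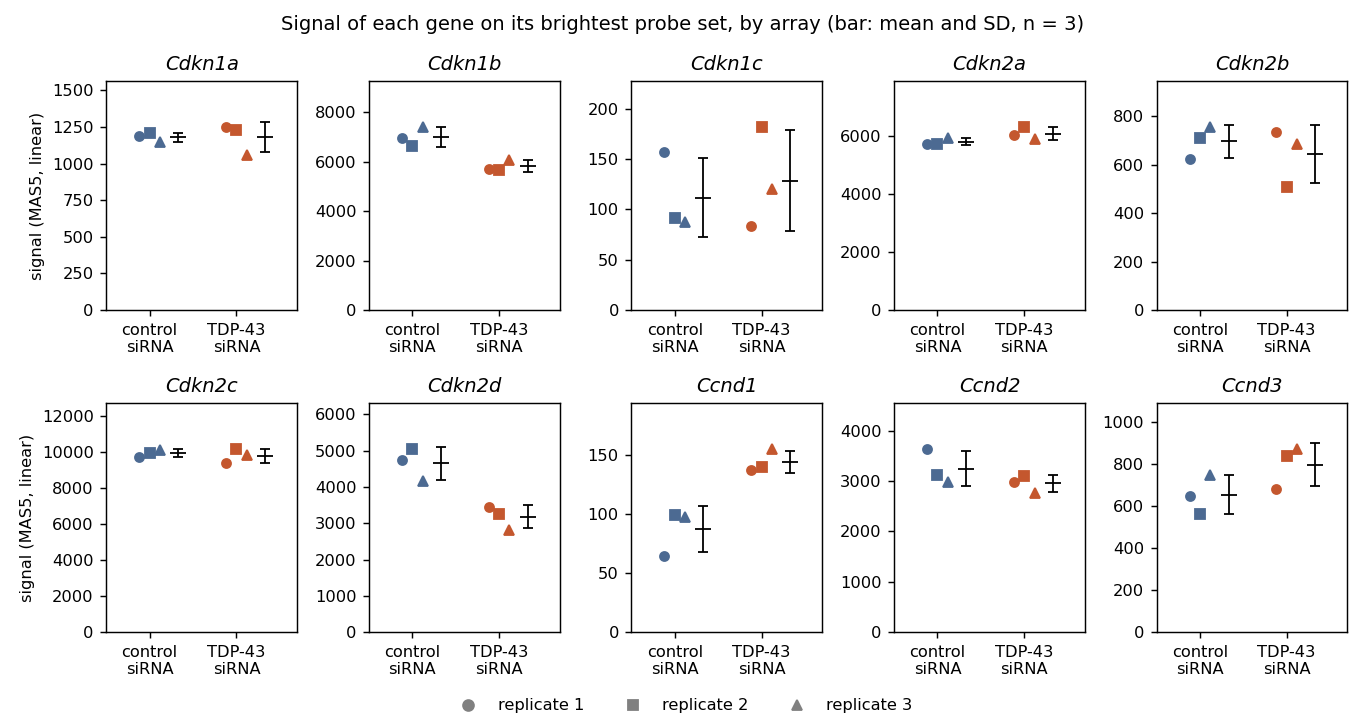
Signal of each of the 10 genes on its brightest probe set (vertical axis, linear MAS5 signal from 0) in the 3 control siRNA and 3 TDP-43 siRNA arrays, 1 point per array with its replicate number as its shape, and the mean with its SD beside them. Cdkn2d and Cdkn1b lie lower and Ccnd1 higher in all 3 TDP-43 siRNA arrays, while Cdkn2c stays near 9957 and 9823.

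Among the INK4 inhibitors, Cdkn2d, which encodes p19INK4d, had the largest difference of the 4 genes. Its single probe set, 1416253_at, read 4744, 5048 and 4162 in control arrays and 3444, 3261 and 2827 after TDP-43 siRNA. The highest TDP-43 siRNA array lay below the lowest control array, which was control replicate 3. The mean fell from 4652 ± 450.0 to 3178 ± 316.5 (SD, n = 3 each), or to 68.3% of control. The log2 difference was -0.55 (SE 0.09, 95% confidence interval -0.75 to -0.35, limma adjusted p = 0.0247). Leaving out each array in turn kept the call in 2 of 6 cases: its limma adjusted p was 0.00903 when control replicate 3 and 0.0459 when TDP-43 siRNA replicate 1 was dropped. Dropping control replicate 1 gave 0.126 and control replicate 2 gave 0.109, while TDP-43 siRNA replicate 2 gave 0.0823 and TDP-43 siRNA replicate 3 gave 0.0672. It was also lost when the variance model had no trend with intensity (0.157) and with no filter on low values (0.0816).

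Cdkn2c, which encodes p18INK4c, showed almost the same signal in both groups. Its probe set, 1416868_at, read 9729, 9988 and 10154 in control arrays and 9412, 10189 and 9869 after TDP-43 siRNA. The groups overlapped, and the array-to-array spread was small, with a coefficient of variation of 2.15% in controls and 3.97% after TDP-43 siRNA. The log2 difference was -0.02 (SE 0.05, limma adjusted p = 0.912), with a 95% confidence interval of -0.13 to 0.09.

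Cdkn2a encodes p16INK4a and, from an alternative first exon read in another frame, the p53 activator p19ARF. The probe set, 1450140_a_at, read 5719, 5714 and 5933 in control arrays and 6011, 6300 and 5883 after TDP-43 siRNA. The suffix a marks a probe set designed against several transcripts of a gene, so the signal is not assigned to either product here. The groups overlapped, with a log2 difference of 0.07 (SE 0.05, 95% confidence interval -0.05 to 0.18, limma adjusted p = 0.656).

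Cdkn2b, which encodes p15INK4b and lies beside Cdkn2a, was less even between arrays. Its probe set, 1449152_at, read 624, 712 and 756 in control arrays and 737, 509 and 686.5 after TDP-43 siRNA. TDP-43 siRNA replicate 2 was the lowest of all 6 arrays, and the other 5 lay between 624 and 756. The log2 difference was -0.125 (SE 0.14, 95% confidence interval -0.43 to 0.18, limma adjusted p = 0.761), and it was 0.032 without that array.

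Among the Cip/Kip inhibitors, Cdkn1b, which encodes p27Kip1, lay lower after TDP-43 siRNA on both of its probe sets without passing the threshold. The brighter one, 1434045_at, read 6939, 6608 and 7400 in control arrays and 5683, 5640 and 6081 after TDP-43 siRNA. The second, 1419497_at, read 963, 824 and 977 against 611, 735 and 634. The groups did not overlap on either. On the brighter probe set the mean was 6982 ± 398 against 5801 ± 243 (SD, n = 3 each), which is 83.1% of control, and the log2 difference was -0.27 (SE 0.06, 95% confidence interval -0.40 to -0.13, limma adjusted p = 0.0886).

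On the second probe set of Cdkn1b the mean was 71.6% of control, with a log2 difference of -0.47 (SE 0.10, limma adjusted p = 0.0902 over 23426 probe sets). The change on the second differed from that on the first by -0.21 (SE 0.14, 95% confidence interval -0.53 to 0.12, limma adjusted p = 0.905), which did not pass. Over the 18 alternatives for the gene the difference lay between -0.37, the mean of both probe sets, and -0.22, without control replicate 3. Its adjusted p ranged from 0.0504 to 0.296, above 0.05 throughout.

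Cdkn1a, which encodes p21Cip1 and is a classic target of p53, had similar signals in both groups on both of its probe sets. On 1424638_at it read 1190, 1205 and 1144 in control arrays and 1250, 1228 and 1060 after TDP-43 siRNA. On 1421679_a_at it read 934, 892 and 959.5 against 1027, 1073 and 858.5. TDP-43 siRNA replicate 3 was the lowest array on both, and TDP-43 siRNA replicates 1 and 2 were the highest on both, so the groups overlapped. The log2 differences were -0.003 (SE 0.08, 95% confidence interval -0.19 to 0.18, limma adjusted p = 0.994) and 0.08 (SE 0.10, limma adjusted p = 0.804 over probe sets), and the change on the second differed from the first by 0.08 (SE 0.08).

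Cdkn1c, which encodes p57Kip2 and is expressed from the maternal allele, had the least even signal of the 10 genes on its brightest probe set. On 1417649_at it read 157, 91.2 and 87.2 in control arrays and 83.1, 182 and 120 after TDP-43 siRNA. The coefficient of variation was 34.9% in controls and 38.9% after TDP-43 siRNA, and the groups overlapped. The log2 difference was 0.165 (SE 0.28), with a wide 95% confidence interval of -0.47 to 0.80 (limma adjusted p = 0.865).

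**Figure D2:**
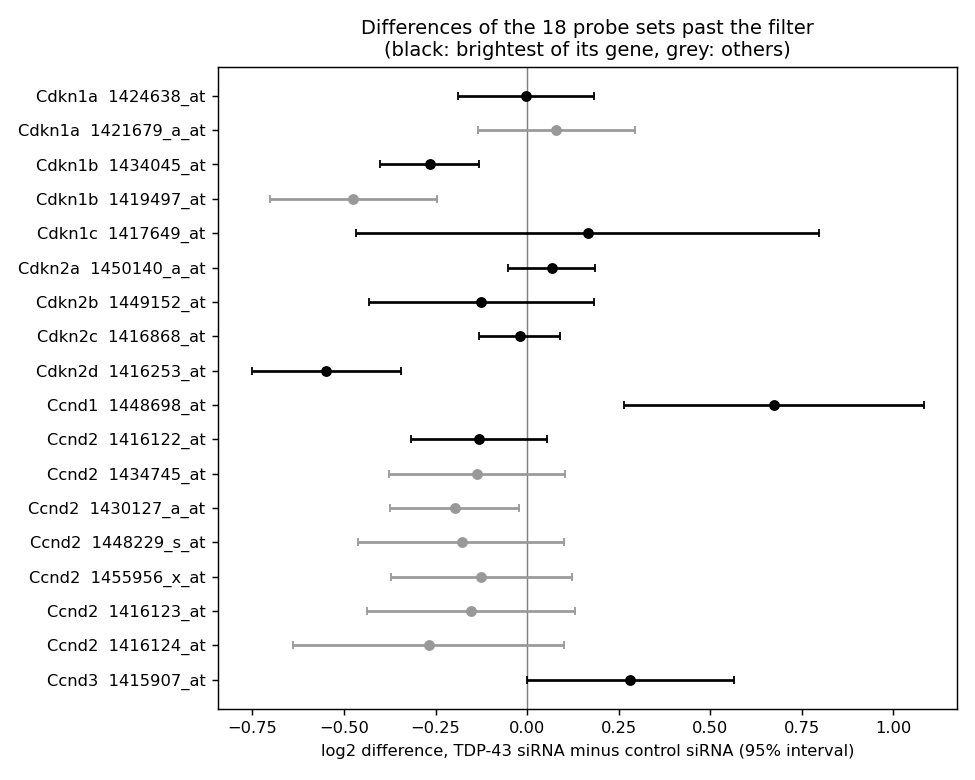
Log2 difference of TDP-43 siRNA minus control siRNA (horizontal axis) with its 95% confidence interval for the 18 probe sets above the filter, from the limma fit over 23426 probe sets; black marks the brightest probe set of each gene. The intervals of Cdkn2d, of both Cdkn1b probe sets, of Ccnd1 and of the Ccnd2 probe set 1430127_a_at leave out 0 before adjustment.

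Ccnd1, the D-type cyclin best known as a target of growth factor and Wnt signalling, was dim on these arrays. Its brightest probe set, 1448698_at, read 64.8, 99.4 and 97.8 in control arrays and 138, 140 and 155 after TDP-43 siRNA, against a filter at 39.8. All 3 TDP-43 siRNA arrays lay above the controls, at 165% of the control mean. The log2 difference was 0.67 (SE 0.18, 95% confidence interval 0.26 to 1.085), which did not pass (limma adjusted p = 0.154).

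The other 2 probe sets of Ccnd1 lay below the filter and entered no test. On 1417420_at the control arrays read 32.9, 33.5 and 29.4 and the TDP-43 siRNA arrays 44.8, 29.6 and 43.15. On 1417419_at they read 12.9, 15.6 and 35.4 against 12.7, 28.1 and 10.8. The groups overlapped on both, so the separation seen on 1448698_at was not seen on these dimmer probe sets.

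Ccnd2, the cyclin that beta cells depend on for growth after birth, had 7 probe sets, all above the filter, and all 7 lay below 0. On the brightest, 1416122_at, it read 3634, 3122 and 2980 in control arrays and 2989, 3104 and 2770 after TDP-43 siRNA. The mean after TDP-43 siRNA was 91.0% of control, with a log2 difference of -0.13 (SE 0.08, 95% confidence interval -0.315 to 0.05, limma adjusted p = 0.559). Control replicate 3 was the lowest control array on all 7 probe sets and lay below the highest TDP-43 siRNA array on all 7, so the groups overlapped on each.

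The 7 probe sets gave a like picture. Their log2 differences ran from -0.27 on 1416124_at to -0.12 on 1455956_x_at, and the smallest limma adjusted p over probe sets was 0.379, on 1430127_a_at at -0.20 (SE 0.08). That probe set read 2595, 2699 and 2259 in control arrays and 2100, 2292 and 2171 after TDP-43 siRNA. On 1416124_at the control arrays read 480, 408 and 299 and the TDP-43 siRNA arrays 300, 368 and 298, where control replicate 3 sat level with TDP-43 siRNA replicates 1 and 3. The suffixes s and x mark probes that can read other transcripts too, which applies to 1448229_s_at and 1455956_x_at.

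Without control replicate 3, the groups separated on 6 of the 7 Ccnd2 probe sets, as they did on 32.9% of all probe sets with that array left out. The differences then ran from -0.45 to -0.19, and none passed (limma adjusted p from 0.109 to 0.339). In that fit 12 of the 18 probe sets of the family had an unadjusted p below 0.05, beside 14.7% of all. Several of the 12 read the same gene, Ccnd2. By gene the count was 5 of 10, beside 2124 of 12627 genes. Leaving out any other single array gave smaller Ccnd2 differences than leaving out control replicate 3. Without control replicate 1 they ran from -0.175 to -0.029, and without TDP-43 siRNA replicate 3 from -0.217 to -0.053, with 0 of the 7 separated in either case. Without TDP-43 siRNA replicate 2 they ran from -0.364 on 1416124_at to -0.137 on 1416123_at, and the groups separated on 1430127_a_at. With both arrays numbered 3 left out they ran from -0.399 to -0.145, 6 of the 7 separated and none passed. Over all probe sets 10408 of 23441 separated in that fit. Control replicate 3 also stood apart on Ldha, as given above, and the part of that array in the overlap was not tested beyond leaving it out. No pair of probe sets of one member differed in its change past the threshold in the limma fit, 0 of the 8 pairs. As 0% of all 10812 such pairs passed, nothing is read from that count. At an unadjusted p below 0.05 there were 0 of the 8, beside 755 of the 10812.

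**Figure D3:**
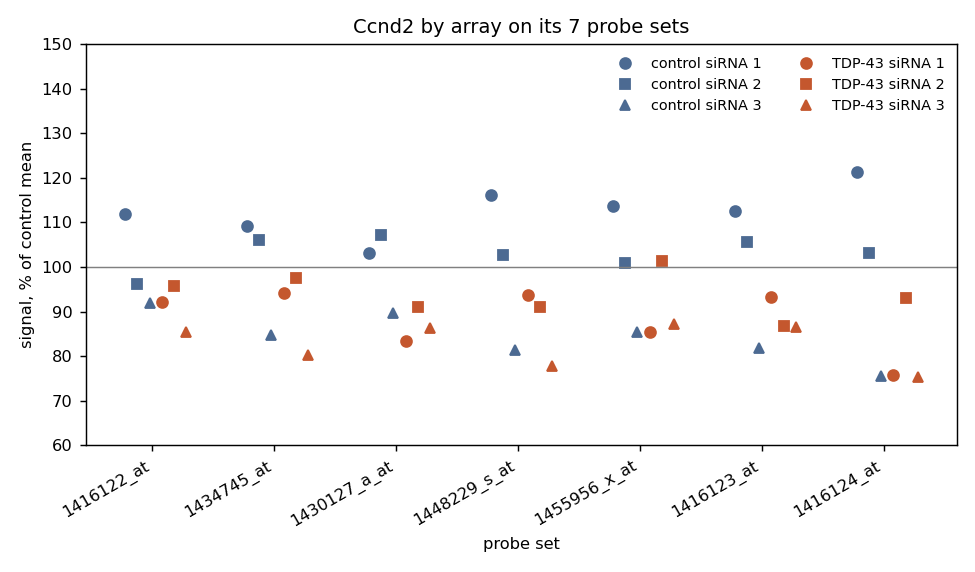
Ccnd2 on its 7 probe sets (horizontal axis, brightest control mean at the left), each array as a percentage of the control mean of that probe set (vertical axis from 60 to 150); colour gives the group and shape the replicate number. Control replicate 3 is the lowest control array on all 7 probe sets and lies below the highest TDP-43 siRNA array on each.

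Ccnd3, the third D-type cyclin, lay higher on average on its brightest probe set without a separation of the groups. On 1415907_at it read 650, 565 and 749 in control arrays and 681, 841 and 873 after TDP-43 siRNA. TDP-43 siRNA replicate 1 lay below control replicate 3, and the other 2 TDP-43 siRNA arrays lay above all controls. The mean was 655 ± 92.3 against 798.5 ± 103 (SD, n = 3 each), with a log2 difference of 0.28 (SE 0.125, 95% confidence interval 0.004 to 0.56, limma adjusted p = 0.389). Without control replicate 2 the difference was 0.183.

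The other 2 probe sets of Ccnd3 lay below the filter. On 1438805_at the control arrays read 27.7, 14.3 and 34.9 and the TDP-43 siRNA arrays 4.87, 20.2 and 15.1. On 1444323_at they read 7.53, 10.29 and 4.695 against 46.9, 29.8 and 10.49, with the highest control array just under the lowest TDP-43 siRNA array. These faint probe sets lay in opposite directions, the first on average lower and the second higher.

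Over the 18 probe sets above the filter, 1 passed, that of Cdkn2d (limma adjusted p = 0.0310 over probe sets), beside 0.662% of all probe sets. The groups did not overlap on 4 of the 18, the probe sets of Cdkn2d, Cdkn1b and Ccnd1, beside 17.3% of all. Counts of members are read only against those shares.

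The genes around the family were taken from 5 lists with 122 genes, of which 118 had a single-gene probe set and 113 lay above the filter. In the same limma fit 1 of the 113 fell, 0 rose and 112 did not pass, beside 0.745% of all genes called. At an unadjusted p below 0.05 there were 24, beside 12.6% of all genes. The median was -0.06, and 74 of the 113 lay below 0, beside 45.1% of all genes. These shares also stand beside the counts of each list below. Without control replicate 3, 4 passed, beside 251 of 12627 genes in that fit: Max, Ccne1, Cdc20 and the mitotic cyclin Ccnb2. Ccnb2 lay close to the threshold there, at -0.32 (limma adjusted p = 0.0493).

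Max, the DNA-binding partner of Myc, was the one that fell. Its probe set, 1423501_at, read 1075, 1037 and 1202 in control arrays and 594.5, 622 and 703 after TDP-43 siRNA. The groups lay far apart against their spread, with a mean of 57.9% of control and a log2 difference of -0.78 (SE 0.09, limma adjusted p = 0.00428). It passed in all 6 fits that left out 1 array, and not without the intensity trend (limma adjusted p = 0.0587). Of the 35 measured transcriptional regulators of the family, the other 34 did not pass and 5 of the 35 had an unadjusted p below 0.05. Stat5b, a mediator of growth hormone and prolactin signals, was at 0.25, the AP-1 subunit Jun at 0.30 and the Polycomb protein Cbx7 at 0.255, and the list median was -0.02. Without both arrays numbered 3, Jun was at 0.507 and passed (limma adjusted p = 0.0188), beside 212 of 12621 genes in that fit. This was the only 1 of 18 alternatives in which it passed. With all 6 arrays its groups overlapped, and its second probe set, 1448694_at, lay at 0.25 (limma adjusted p = 0.628 over probe sets).

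Of 17 kinases, other cyclins and their regulators 0 passed in the limma fit, 6 had an unadjusted p below 0.05, 12 lay below 0 and the median was -0.115. Ccne1, the cyclin E that activates CDK2 at S phase entry, read 1687, 1668 and 1207 in control arrays and 1025, 1129 and 929 after TDP-43 siRNA on 1441910_x_at. Control replicate 3 was again the control array nearest to the TDP-43 siRNA arrays. The log2 difference was -0.55 (SE 0.13, limma adjusted p = 0.101), and it was -0.705 without control replicate 3, where it passed (limma adjusted p = 0.00705). Its second probe set, 1416492_at, lay at -0.31 in the fit over probe sets (SE 0.13, limma adjusted p = 0.390), and its groups overlapped. The suffix x of the brighter one marks probes that can read other transcripts too. Ccnb2 was at -0.275, the mitotic kinase Cdk1 at -0.25 and its partner subunit Cks2 at -0.13.

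Of 19 pocket proteins and E2F factors 0 passed in the limma fit, 3 had an unadjusted p below 0.05, 10 lay below 0 and the median was -0.005. E2f7, a repressor of E2F targets, was at -0.31, the activators E2f2 and E2f3 were at -0.37 and -0.19, and the activator E2f1 was at 0.17. E2f2 was at -0.204 without TDP-43 siRNA replicate 3, and the mean of its probe sets put E2f1 at 0.104. Of 24 E2F target genes of DNA replication 0 passed in the limma fit and 7 had an unadjusted p below 0.05. All 24 measured lay below 0, with a median of -0.13, and each array's sum over them lay between 83329 and 90254 in controls and between 75793 and 83443 after TDP-43 siRNA. Without control replicate 3, all 24 lay below 0 with a median of -0.17, and without TDP-43 siRNA replicate 3, 20 of the 24 did, with a median of -0.09. Under quantile normalization and median centring, all 24 lay below 0. With the mean of probe sets 22 of the 24 did, with a median of -0.11. Without control replicate 2, 22 did, and 23 did without control replicate 1 or without both arrays numbered 3. Gins1, of the replicative helicase, was at -0.38, the ribonucleotide reductase subunit Rrm1 at -0.23, and the helicase subunits Mcm4 and Mcm7 at -0.29 and -0.14. As the mean of its probe sets Gins1 was at -0.199, and without control replicate 2 Mcm4 was at -0.189.

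Of 18 genes for the turnover of the inhibitors and D-type cyclins 0 passed in the limma fit, 3 had an unadjusted p below 0.05, 10 lay below 0 and the median was -0.03. Skp2, the ubiquitin ligase subunit that marks p27Kip1 for destruction, read 903, 791 and 758 in control arrays and 705, 746 and 663 after TDP-43 siRNA, a log2 difference of -0.21 (SE 0.09, limma adjusted p = 0.388) that was -0.135 without control replicate 1. Ambra1 and Fbxo31, substrate receptors of ligases for D-type cyclins, were at 0.18 and 0.31, and for Ambra1 the mean of its probe sets gave -0.099 and the fit without control replicate 3 gave 0.08. Cdc20, an activator of the anaphase-promoting complex, read 8674, 8593 and 7676 against 6827, 6765 and 6684 on 1439377_x_at. The log2 difference was -0.30 (SE 0.06, limma adjusted p = 0.0555), and it passed at -0.35 without control replicate 3 (limma adjusted p = 0.00931). The limit of the suffix x applies to this probe set too. In the fit over probe sets 1416664_at, whose groups did not overlap, lay at -0.26 (limma adjusted p = 0.1498). There 1439394_x_at, whose groups overlapped, lay at -0.22 (limma adjusted p = 0.5143). The mean of its probe sets put Cdc20 at -0.258 (limma adjusted p = 0.155), and it passed in 6 of 18 alternatives.

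**Figure D4:**
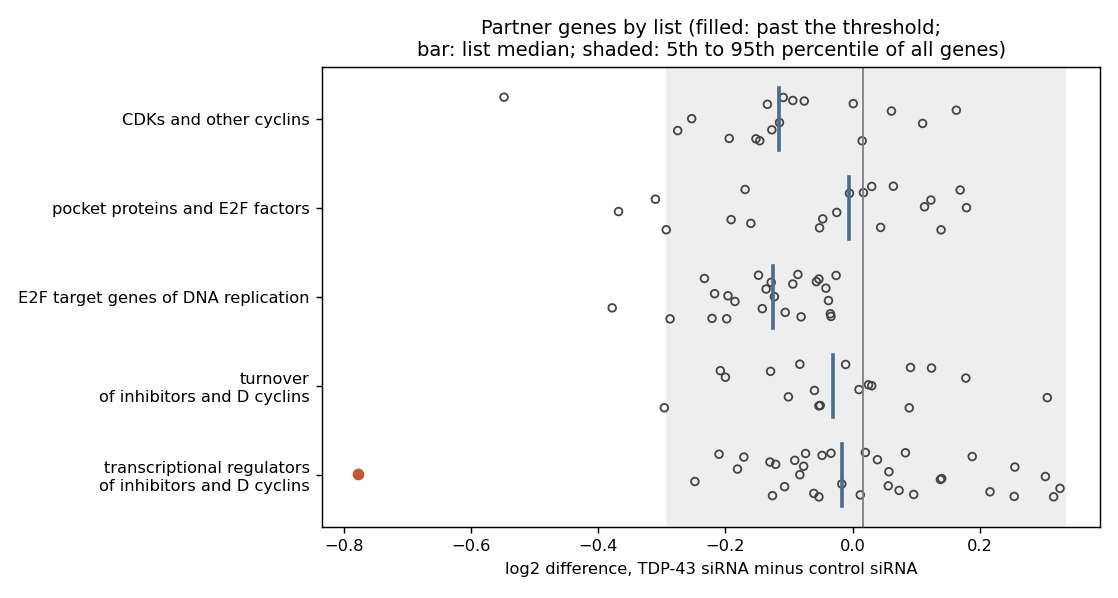
Log2 difference of TDP-43 siRNA minus control siRNA (horizontal axis) for the 113 measured genes of the 5 lists (rows), 1 point per gene, filled where it passed the threshold; the blue bar is the median of the list and the shading runs from the 5th to the 95th percentile of all 12614 genes, -0.29 to 0.33. Max is the filled point at -0.78, and all 24 E2F target genes lie left of 0.

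The genes most like the family in their pattern over the 6 arrays were found by the root mean square difference between log2 values centred on each gene's mean. For Cdkn2d, the inhibitor with the smallest p, the nearest were Gca at 0.052, Hars at 0.052 and Nr2f2 at 0.067. Their log2 differences between the groups were -0.56, -0.57 and -0.50, and of these Hars, the histidyl-tRNA synthetase, passed (limma adjusted p = 0.0216). For Ccnd1, the cyclin with the smallest p, the nearest were Mdga2 at 0.077, Parvg at 0.084 and Psg28 at 0.103, with log2 differences of 0.66, 0.65 and 0.75 that did not pass. Likeness over 6 arrays that share the groups follows largely from the group difference and is a description.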

How the data were processed

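Total RNA of MIN6 cells, 100 ng per sample, was made into biotinylated cRNA primed from the 3' end and put on 1 Affymetrix mouse array each, per the labels' protocols. MAS5 is the tool named by the submitters' processing notes, and the authors deposited linear signal intensity values for 45101 probe sets. Each array's mean without the highest and lowest 2% was 500.003, as checked on the table, and no detection calls were used here.

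Gene names came from GEO's platform annotation (34945 with 1 gene, 932 with several, 9160 with none, 64 controls), with 34741 symbols updated through RefSeq of GRCm38.p6. After log2(signal + 12), probe sets in the lowest 40% by mean log2 value were dropped. The fit was lmFit and eBayes with an intensity trend in limma 3.58.1 (R 4.3.3), over the brightest single-gene probe set of 12614 genes, over all 23426 single-gene probe sets, and over 10812 differences between a probe set and the brightest of its gene. P-values were adjusted by Benjamini-Hochberg over each whole fit, with a threshold of 0.05. The members, the lists and the alternatives were chosen with earlier results of these data known. Named genes were all 10 members, up to 4 genes with the smallest p of each list, and the 3 most alike in pattern to 1 inhibitor and 1 cyclin. Markers and Ldha were named beside the results they touch, after their values were seen. Alternatives covered pseudocount, filter, scaling, variance model, array weights, probe set rule, replicate block and arrays left out. Motifs were counted by letters on both strands.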

Additional observations from a re-analysis of the deposited data

How the results depend on the processing

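The number of member genes past the threshold in the limma fit, 1, was 0 with no filter and 0 without the intensity trend (3 at an unadjusted p below 0.05 in each), and 0 to 1 with 1 array left out. The number of member probe sets past it, 1, was 0 with no filter (6 unadjusted) and 0 without the trend (4 unadjusted), and 0 to 1 with 1 array left out. The number of partner genes, 1, was 0 without the trend (16 unadjusted), 2 with the 60% filter and with robust variance, 3 with array weights, 4 without both arrays numbered 3 (Max, Ccne1, Cdc20 and Jun), and 1 to 4 with 1 array left out. Over all genes the limma fit called 94, against 12 without the trend and 51 with no filter. It called 117 of 9786 genes with the 60% filter and 114 of 12614 with robust variance. The fit called 163 with array weights, 212 without both arrays numbered 3 and 32 to 251 with 1 array left out. At an unadjusted p below 0.05 there were 1480 of 12614 genes without the trend and 1876 of 18193 with no filter. Over probe sets the limma fit called 155, against 0 without the trend (2548 of 23426 unadjusted) and 60 with no filter (3274 of 34945 unadjusted).

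Genes without a call changed sign as follows. Cdkn1a was at 0.014 with array weights, 0.038 as the mean of its probe sets, 0.049 without both arrays numbered 3 and between -0.047 and 0.071 with 1 array left out. With 1 array left out, Cdkn1c lay between -0.099 and 0.415, Cdkn2b between -0.229 and 0.032 and Cdkn2c between -0.047 and 0.01. The partner gene Ambra1 was at -0.099 as the mean of its probe sets. The members Cdkn1b, Cdkn2a, Cdkn2d, Ccnd1, Ccnd2 and Ccnd3 kept their sign in every alternative that measured them. The cause was not tested, and dim signals limit Ccnd1 and Cdkn1c.

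The arrays numbered 3 deviated together (correlation 0.239), while those numbered 1 and 2 did not (-0.124 and -0.139). Some arrays with unlike numbers did so too. Control replicate 2 with TDP-43 siRNA replicate 1 gave 0.296, and control replicate 1 with TDP-43 siRNA replicate 2 gave 0.23. The remaining unlike pairs lay between -0.175 and -0.082. The numbers were therefore not taken to pair the samples, and a pairing across numbers was not tested. With the replicate block the limma fit called 127 genes, Cdkn2d stayed called (adjusted p = 0.00504) and 3 partner genes passed (Max, Ccne1 and Cdc20).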
